A study of Mus musculus with 17 samples.

Results

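The genes described here encode subunits of the mitochondrial respiratory chain and of ATP synthase. They were chosen by symbol on the array: Nduf genes other than the Ndufaf assembly factors, Uqcr and Atp5 genes, the Sdh genes, Cyc1, and genes starting with Cox4 to Cox8. The rule found 81 of the 16593 genes with a symbol, on 100 probes, and used no measured value. Of these, 78 passed the filter on dim probes, which asked for a signal above background on at least 3 arrays, and 71 were above background on all 17 arrays. Cox7b2, Cox8c and Ndufs1 did not pass and were above background on 0 arrays. The 78 tested genes are 33 of complex I, 3 of complex II (Sdhb, Sdhc and Sdhd), 9 of complex III, 17 of complex IV and 16 of ATP synthase, which is called complex V here. Ndufa4 was counted with complex IV, where its protein is found. The symbol Ndufs5-ps is that of a pseudogene, so its probe may read a closely related transcript.

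RNA of mouse liver was measured on 17 Illumina bead arrays in 4 groups. The first group holds 4 arrays of CCl4-treated liver that the design text calls FSP1 ablated, with FSP1 + under the label tk. The second holds 3 arrays of CCl4-treated liver called aSMA ablated, with aSMA + under tk. The third group holds 6 arrays of liver with fibrosis induced by CCl4, with tk read as Neg, and it is the control of both ablations. The fourth group holds 4 arrays of healthy, untreated liver, with tk read as No. CCl4 is a solvent that injures hepatocytes, FSP1 is the protein of S100a4 and aSMA that of Acta2. All 3 CCl4-treated groups share the solvent. Strain, sex, age, dose, duration, what tk stands for and how cells were ablated are not given in the labels. The labels do not tell whether each array is a separate animal, so p-values measure the spread between arrays, which may be technical.

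Complex I (NADH dehydrogenase) and complex II (succinate dehydrogenase) feed electrons from NADH and succinate into coenzyme Q. Complex III passes them on to cytochrome c, complex IV (cytochrome c oxidase) passes them to oxygen, and complex V uses the proton gradient that complexes I, III and IV build to make ATP. Most subunits are encoded in the nucleus, and several complex IV subunits come in pairs of isoforms, such as a general and a muscle form. Hepatocytes are rich in mitochondria and use this ATP for synthesis of glucose and urea.

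Between 13704 and 15574 of 25697 probes per array were above background, and precision is limited by how few arrays each group has. As deposited, intensities had an upper quartile of 165.4 to 178.8 on CCl4-treated arrays and 63.7 to 65.7 on healthy arrays, so the healthy arrays have a scale of their own. Y-linked Eif2s3y was high in healthy liver and in CCl4 arrays 5 and 6. Xist was high on all ablated arrays and on CCl4 arrays 1 to 3, and CCl4 array 4 had neither signal. Its brightest probe put Acta2 at 6.95 to 7.76 on FSP1 ablated arrays, 7.38 to 9.31 on aSMA ablated arrays, 9.15 to 11.34 on CCl4 arrays and 6.85 to 8.58 on healthy arrays. S100a4 stayed at 5.85 to 6.20 throughout, so its probe checks nothing. All 12 hepatocyte markers passed the filter, and their log2 values summed to 142.8 to 147.8 on FSP1 ablated arrays, 149.4 to 151.03 on aSMA ablated arrays, 143.1 to 148.9 on CCl4 arrays and 146.8 to 149.5 on healthy arrays. These sums include the probe for Alb, the albumin gene, and carry its shift. It read 6.07 to 6.60 on healthy arrays, 6.21 to 6.49 on FSP1 ablated arrays and 6.26 to 6.42 on CCl4 arrays 1 to 3. On CCl4 arrays 4 to 6 it read 8.62 to 9.31, and on aSMA ablated arrays 8.80 to 9.23. Levels below are normalized log2 intensities. Differences are log2 fold changes, first group minus second, with the standard error (SE) of a limma fit to all arrays and p-values adjusted over all 12666 genes. A gene is said to have risen, fallen or changed where its adjusted p was under 0.05.

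Within groups the median spread of the members was near that of all genes. It was higher on FSP1 ablated and CCl4 arrays and lower on aSMA ablated and healthy arrays. The median SD over the 78 genes was 0.16 on FSP1 ablated arrays, 0.11 on aSMA ablated arrays, 0.20 on CCl4 arrays and 0.14 on healthy arrays, beside 0.14, 0.12, 0.18 and 0.16 over all genes. The widest spread lay in Cox6a2 (SD 1.43) after FSP1 ablation, Cox8b (SD 1.82) after aSMA ablation, Atp5pb (SD 0.51) with CCl4 and Atp5o (SD 0.93) in healthy liver. No comparison called 48 of the 78 genes.

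**Figure D1:**
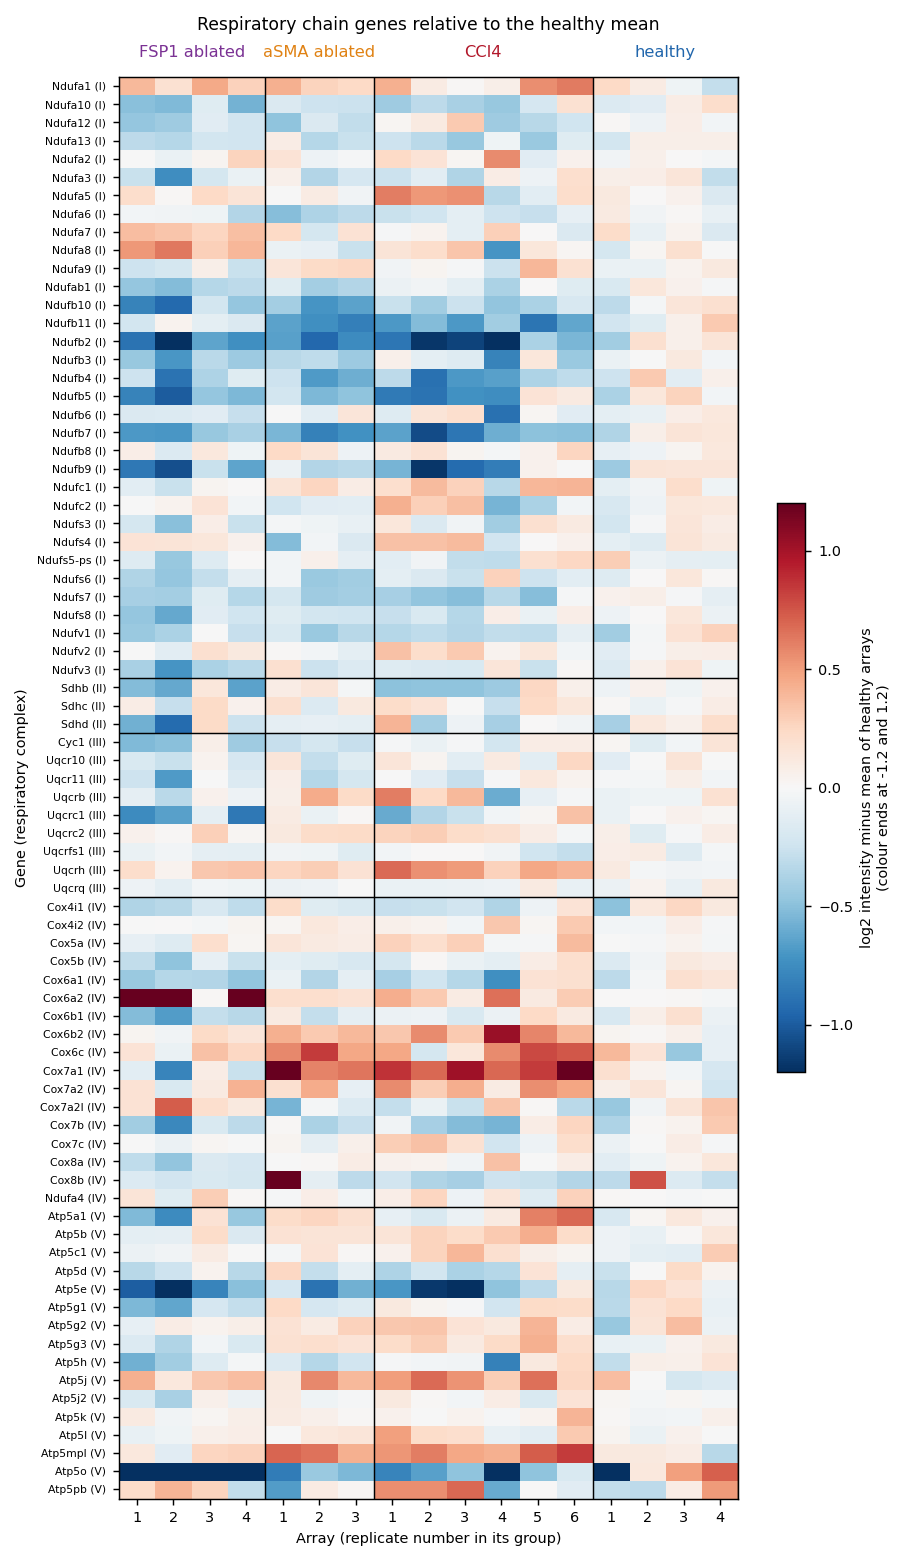
Each row is a respiratory chain gene, with its complex in brackets, and each column an array. Colour is the normalized log2 intensity minus the mean of the 4 healthy arrays. Cox6a2 is high on FSP1 ablated arrays 1, 2 and 4, Cox8b on aSMA ablated array 1, and Cox7a1 on the aSMA ablated and CCl4 arrays. Colours against healthy hold on the quantile-normalized scale; in CCl4 against healthy liver, 68 members were called higher on the deposited scale and 57 with arrays centred on their median.

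FSP1 ablated liver was compared with CCl4 liver to see what differed with the ablation in the injured organ. Among the 78 members 3 rose and 11 fell (17.9%), beside 13.2% of all genes called (5.7% higher and 7.55% lower). The genes that fell came from complexes I, III, IV and V and none from complex II. The differences of 63 members lay below 0, beside 5928 of all 12666 genes. So did all 16 of complex V, 14 of 17 of complex IV, 8 of 9 of complex III and 22 of 33 of complex I. The median difference of the 78 members was -0.18, beside 0.01 over all genes. Array by array, the mean of the 78 members was 10.79 to 11.05 on FSP1 ablated arrays and 10.93 to 11.19 on CCl4 arrays, so the groups overlapped. With each array centred on its median in place of quantile normalization, 50 of 78 lay below the median of all genes, including 12 of 16 in complex V. The arrays of both groups did not overlap for 8 members, beside 10.7% of all genes. The number of calls changed with the processing. On the deposited scale 4 members were called, beside 9.52% of all genes, and 1 of the 3 rises and 3 of the 11 falls were among them. With centred arrays 7 were called, beside 15.4% of all genes, with 3 of the 3 rises and 3 of the 11 falls among them. Eif2s3y, the Y-linked gene, was high on 2 of the 6 CCl4 arrays and on no FSP1 ablated array. With that signal as a block 8 of the 14 passed, beside 12% of all genes, while Uqcrh, Atp5g1, Cox6a2, Ndufa7, Ndufab1 and Ndufv3 did not.

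In complex IV the largest fall was that of Cox7a1, the heart and muscle form of subunit VIIa. Its levels were 7.01, 6.35, 7.23 and 6.88 on FSP1 ablated arrays, against 7.83 (lowest), 7.99 (median) and 8.40 (highest) on CCl4 arrays. All FSP1 ablated arrays lay below all CCl4 arrays, and the difference was -1.16 (SE 0.17, adjusted p = 0.000374). Cox8a, the general form of subunit VIII, averaged 12.89 ± 0.14 (SD, n = 4) after FSP1 ablation and 13.26 ± 0.14 with CCl4 (n = 6), with no overlap and a difference of -0.37 (SE 0.08, adjusted p = 0.00737). Cox6b1, the general form of subunit VIb, fell by 0.44 (SE 0.11, adjusted p = 0.0118), and a second Cox6b1 probe gave -0.47. Cox6b2, known as the testis form of the same subunit, fell by 0.45 (SE 0.11), to 5.91 ± 0.12 on FSP1 ablated arrays, against 6.35 ± 0.27 on CCl4 arrays. Both values are near background, which 3 of 4 and 6 of 6 arrays exceeded.

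In complex V the fall was shared by 4 called genes. All 4 were called against CCl4 arrays 4 to 6 alone, but only Atp5g3 against CCl4 arrays 1 to 3 alone. Atp5g3 encodes the c subunit of the rotating ring and stood at 13.96, 13.77, 14.09 and 13.95 on FSP1 ablated arrays, against 14.23 (lowest), 14.35 (median) and 14.56 (highest) on CCl4 arrays. Again the groups did not overlap on the normalized scale, though they did as deposited, and the difference was -0.43 (SE 0.07, adjusted p = 0.00105). Atp5g1 and Atp5g2 encode the same mature c subunit: Atp5g1 fell by 0.47 (SE 0.13, adjusted p = 0.0263), whereas Atp5g2 differed by -0.21 (95% interval -0.47 to 0.05) and did not pass. Atp5b, the catalytic beta subunit, fell by 0.31 (SE 0.08, adjusted p = 0.0146), though it was at 0.025 when arrays were centred on their median. Atp5mpl, a small membrane subunit, fell by 0.47 (SE 0.11, adjusted p = 0.0123), with no overlap between groups.

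Complex III had 1 call. Uqcrh, the hinge protein beside cytochrome c1, averaged 13.19 ± 0.14 on FSP1 ablated arrays and 13.45 ± 0.14 on CCl4 arrays (SD, n = 4 and 6). It fell by 0.25 (SE 0.08, adjusted p = 0.0458), and FSP1 ablated arrays 3 and 4 (13.29 and 13.31) lay within the CCl4 range of 13.24 to 13.65. Sdhb, Sdhc and Sdhd of complex II differed by -0.15 (95% interval -0.50 to 0.21), -0.06 (-0.30 to 0.18) and -0.30 (-0.72 to 0.12), and none passed.

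Complex I went both ways. Ndufb11, an X-linked accessory subunit of the membrane arm, read 6.99, 7.25, 7.09 and 7.04 on FSP1 ablated arrays, against 6.34 (lowest), 6.56 (median) and 6.80 (highest) on CCl4 arrays. It rose by 0.51 (SE 0.11, adjusted p = 0.00414), with all FSP1 ablated arrays above all CCl4 arrays. A second, dimmer Ndufb11 probe differed by 0.22 (adjusted p = 0.0994 in limma) in the fit of every probe on its own. Ndufa7, an accessory subunit, rose by 0.33 (SE 0.10, adjusted p = 0.0494). Ndufv3, at the NADH-oxidizing end, fell by 0.35 (SE 0.11, adjusted p = 0.0414), and Ndufab1, the acyl carrier protein, fell by 0.28 (SE 0.08, adjusted p = 0.037). In 10 fits that each left out an array of these groups, the call held 1 time for Ndufa7, 2 times for Ndufab1 and 3 times each for Ndufv3 and Uqcrh.

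Cox7a1, Cox8a, Atp5g3 and Ndufb11 were called in all 10 such fits, and also against CCl4 arrays 1 to 3 alone and 4 to 6 alone. Not all of their separations held without normalization. As deposited, Atp5g3 read 15142.5 to 23318.5 on FSP1 ablated arrays, against 16449.3 to 22336.4 on CCl4 arrays. Cox8a read 7025.2 to 10690.5, against 8726.5 to 11693.8, so both genes overlapped between the groups, as did Atp5mpl. Cox7a1 and Ndufb11 did not overlap as deposited either. Without FSP1 ablated array 2 the number of called members was 4, without FSP1 ablated array 1 it was 8, and without CCl4 array 6 it was 9. Against CCl4 arrays 1 to 3 alone it was 10, beside 13.4% of all genes. Atp5b, Atp5g1, Atp5mpl, Cox6b1, Cox6b2, Cox6a2, Ndufa7 and Ndufv3 were not among those. Cox7c, Ndufa12, Ndufa5 and Uqcrb were, though they were not called against all CCl4 arrays. Against CCl4 arrays 4 to 6 alone it was 18, beside 17.2%. Cox6a2, Ndufa7, Ndufab1 and Uqcrh were not among these, so Cox6a2 and Ndufa7 were called against neither part alone. Atp5a1, Atp5e, Cox4i2, Cox5b, Ndufa8, Ndufc2, Ndufs8 and Uqcrc1 were called there but not against all CCl4 arrays. CCl4 arrays 1 to 3 share the high Xist of the FSP1 ablated arrays. They also share the low reading of the Alb probe, which healthy arrays had too (6.07 to 6.60). The part of these signals was not tested.

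**Figure D2:**
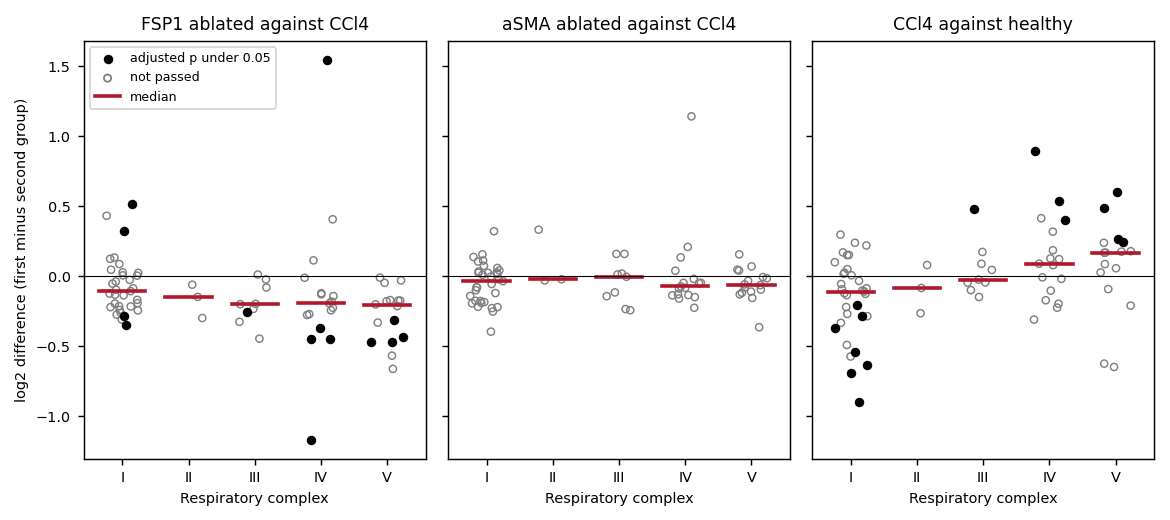
Log2 differences of the 78 members by complex in 3 comparisons; filled points passed the adjusted threshold of 0.05 and red bars are medians. All 16 complex V genes lie below 0 in FSP1 ablated against CCl4, no point is filled in aSMA ablated against CCl4, and in CCl4 against healthy the 7 filled points below 0 are all of complex I. Those 7 lie above 0 when the deposited scale is kept or arrays are centred on their median.

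The promoters shown are those of the called member with the smallest p in each of complexes I, III, IV and V in FSP1 ablated against CCl4 liver, since these genes carry the changes described here. They were picked after the values were seen. The sequences are those of RefSeq on GRCm38.p6, from 250 bases before to 50 bases after the annotated start, and 65 of the 81 members have an entry. Capitals mark a match to the NRF1 motif (GCGC, any base, TGCGC) or to the ETS motif (CCGGAAG), searched on both strands.
Cox7a1, chr7:30183921-30184220, plus strand: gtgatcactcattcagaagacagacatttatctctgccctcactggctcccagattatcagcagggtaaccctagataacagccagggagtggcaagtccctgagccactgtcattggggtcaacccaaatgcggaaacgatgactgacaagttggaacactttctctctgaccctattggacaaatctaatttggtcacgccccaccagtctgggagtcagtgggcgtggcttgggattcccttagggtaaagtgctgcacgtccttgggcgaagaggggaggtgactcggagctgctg
Ndufb11, chrX:20617570-20617869, minus strand: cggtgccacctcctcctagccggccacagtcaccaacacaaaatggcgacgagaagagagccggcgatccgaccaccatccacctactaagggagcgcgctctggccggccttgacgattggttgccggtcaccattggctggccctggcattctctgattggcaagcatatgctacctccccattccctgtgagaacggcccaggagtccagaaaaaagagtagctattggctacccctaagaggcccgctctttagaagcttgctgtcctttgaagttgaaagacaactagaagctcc
Atp5g3, chr2:73911277-73911576, minus strand: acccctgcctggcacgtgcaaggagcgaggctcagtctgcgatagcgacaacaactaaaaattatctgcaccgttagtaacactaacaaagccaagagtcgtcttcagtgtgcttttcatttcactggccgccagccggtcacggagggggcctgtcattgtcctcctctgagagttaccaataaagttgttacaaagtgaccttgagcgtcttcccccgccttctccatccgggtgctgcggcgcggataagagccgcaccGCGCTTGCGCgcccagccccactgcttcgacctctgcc
Uqcrh, chr4:116075021-116075320, minus strand: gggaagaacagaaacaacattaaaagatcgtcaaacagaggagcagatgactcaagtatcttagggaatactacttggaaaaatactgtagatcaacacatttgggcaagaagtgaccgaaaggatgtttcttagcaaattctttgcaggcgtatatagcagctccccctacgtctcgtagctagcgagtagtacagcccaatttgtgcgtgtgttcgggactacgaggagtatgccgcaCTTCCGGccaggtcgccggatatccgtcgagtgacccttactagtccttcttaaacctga

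NRF1 and the ETS factor GABP are known regulators of genes of the respiratory chain. The NRF1 letters stand in the window of 14 of 65 members (21.5%), beside 8.04% of 13335 platform genes, and the ETS letters in 16 of 65 (24.6%), beside 13.9%. By complex, I to V in order, the NRF1 letters were found in 5 of 30, 1 of 2, 1 of 5, 1 of 14 and 6 of 14 genes. The ETS letters were found in 4 of 30, 2 of 2, 2 of 5, 3 of 14 and 5 of 14. Atp5g3 holds the NRF1 letters, Uqcrh holds the ETS letters as their reverse complement, CTTCCGG, and Cox7a1 and Ndufb11 hold neither. These are matches of letters, and only these motifs were searched.

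**Figure D3:**
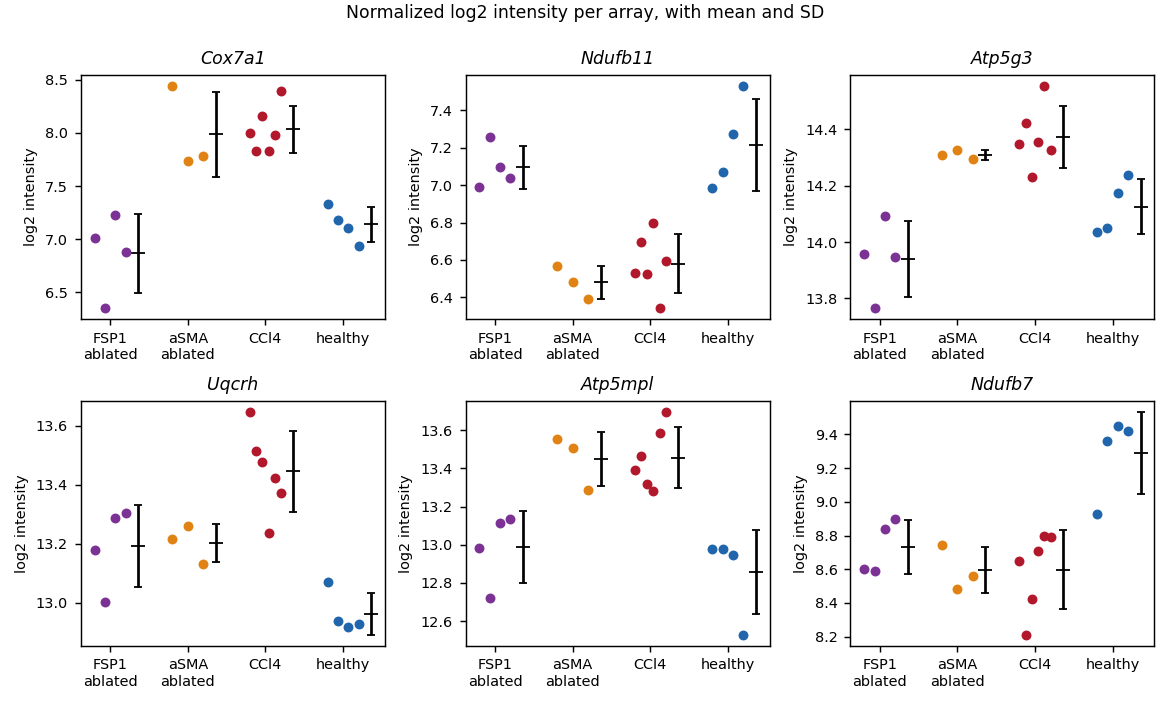
Normalized log2 intensity of 6 members on each array, with group mean and SD at the right of the points. The FSP1 ablated arrays lie apart from all CCl4 arrays for Cox7a1, Ndufb11, Atp5g3 and Atp5mpl, and the CCl4 arrays lie apart from all healthy arrays for Cox7a1, Ndufb11, Uqcrh, Atp5mpl and Ndufb7. As deposited, Atp5g3 and Atp5mpl overlap between FSP1 ablated and CCl4 arrays. Against healthy, Ndufb11 and Ndufb7 turn to above 0 when arrays are centred on their median.

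Markers of other cells moved in the same comparison. All 9 fibroblast and stellate cell markers were measured, 4 fell and none rose in FSP1 ablated against CCl4 liver, and their log2 values summed to 65.9 to 70.6 on FSP1 ablated arrays, 69.4 to 76.5 on aSMA ablated arrays, 75.3 to 80 on CCl4 arrays and 61.7 to 65.1 on healthy arrays. All 4 measured markers of dividing cells fell, with sums of 24.3 to 29.9 on FSP1 ablated arrays, 32.5 to 36.5 on aSMA ablated arrays, 35.3 to 42.5 on CCl4 arrays and 23.6 to 24.6 on healthy arrays. Of 4 red cell genes 2 were measured, Alas2 and Hba-a1, with sums of 14.6 to 20.7 on FSP1 ablated arrays, 20.3 to 22.1 on aSMA ablated arrays, 19.7 to 23.7 on CCl4 arrays and 24.99 to 25.4 on healthy arrays. Neither passed in FSP1 ablated against CCl4 liver, and their median difference was -1.78. The part of these cells in the result was not tested. In whole liver, fewer cells of a type and less RNA per cell cannot be told apart.

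The ablations were also set against each other. Between FSP1 ablated and aSMA ablated liver, 1 member rose and 2 fell, beside 4.75% of all genes called (1.98% higher and 2.77% lower). Ndufb11 was higher after FSP1 ablation, at 6.99 to 7.25 on FSP1 ablated arrays, against 6.57, 6.48 and 6.39 on aSMA ablated arrays, a difference of 0.61 (SE 0.12, adjusted p = 0.0137). The second, dimmer Ndufb11 probe differed by only 0.07 (adjusted p = 0.74 in limma) in the fit of every probe on its own. Cox7a1 was lower, at 6.35 to 7.23 on FSP1 ablated arrays, against 8.44, 7.73 and 7.78 on aSMA ablated arrays, a difference of -1.12 (SE 0.20, adjusted p = 0.00804). Atp5g3 was lower too, with a difference of -0.37 (SE 0.09, adjusted p = 0.0259). On the normalized scale none of these 3 genes overlapped between the ablations. As deposited, Atp5g3 overlapped, at 15142.5 to 23318.5 on FSP1 ablated arrays and 21883.9 to 24680.2 on aSMA ablated arrays. In all, 22 members did not overlap, beside 23.9% of all genes, and 59 of 78 differences lay below 0, with a median of -0.12 beside 0.01 over all genes. Leaving out aSMA ablated array 2 or 3 left 1 call, Cox7a1, and leaving out FSP1 ablated array 3 gave 9. All arrays of both groups had high Xist. The groups differed in the probe for Alb, the albumin gene, which read 6.21 to 6.49 on FSP1 ablated arrays and 8.80 to 9.23 on aSMA ablated arrays. Its part in these differences was not tested.

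aSMA ablated liver was compared with CCl4 liver in the same way, and here 0 of 78 members passed in limma, beside 0.0079% of all genes. The count at an unadjusted p under 0.05 was 5 of 78, beside 11.3% of all genes: Ndufs4 (-0.39), Ndufv2 (-0.22), Ndufa6 (-0.19), Uqcrh (-0.24) and Cox8b (1.14). The median difference was -0.05, beside -0.00 over all genes, and 1 member did not overlap, beside 4.83% of all genes. For Cox7a1, the group means were 7.99 ± 0.40 on aSMA ablated arrays and 8.03 ± 0.22 on CCl4 arrays. Atp5g3 was at 14.31 ± 0.02 and 14.37 ± 0.11 on the same arrays. Against CCl4 arrays 1 to 3 alone, 6 members fell, beside 9.73% of all genes called: Ndufs4 by 0.60, Ndufa5 by 0.54, Ndufc2 by 0.52, Ndufa12 by 0.47 and Ndufv2 by 0.34, all of complex I, and Uqcrh by 0.34. Against CCl4 arrays 4 to 6 alone no member passed in limma, beside 0.0316% of all genes. These parts of the CCl4 group differ in Xist and in the probe for Alb. That probe read 8.80 to 9.23 on aSMA ablated arrays, against 6.26 to 6.42 on CCl4 arrays 1 to 3 and 8.62 to 9.31 on CCl4 arrays 4 to 6.

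Setting CCl4 liver against healthy liver asks what differed with CCl4. The Y-linked signal and the deposited scale also differ between these groups and cannot be fully told apart from CCl4. On the quantile-normalized scale 8 members rose and 7 fell (19.2%), beside 34.6% of all genes called (16.7% higher and 17.8% lower). The arrays did not overlap for 10 members, beside 21.4% of all genes. All 7 that fell belong to complex I, and the 8 that rose to complexes III (1), IV (3) and V (4). The median difference was -0.11 in complex I, -0.08 in complex II, -0.02 in complex III, 0.09 in complex IV and 0.17 in complex V, beside -0.02 over all genes. The median over all genes lay at 1.03 on the deposited scale and at 0.38 with each array centred on its median, shifts of 1.05 and 0.40. On those scales all 7 falls turned to above 0. There 68 and 57 members were called, all higher, beside 67.8% and 60.2% of all genes. Relative to the median of all genes, the 7 stayed below it on the deposited scale, and 6 of 7 did with centred arrays, where Ndufa6 was at 0.01. Of the 8 that rose, Atp5b (-0.23) and Atp5g3 (-0.25) lay below that median on the deposited scale and none did with centred arrays. For whole complexes the order also moved: the median of complex I minus that of all genes was 0.18 with centred arrays and -0.25 on the deposited scale.

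**Figure D4:**
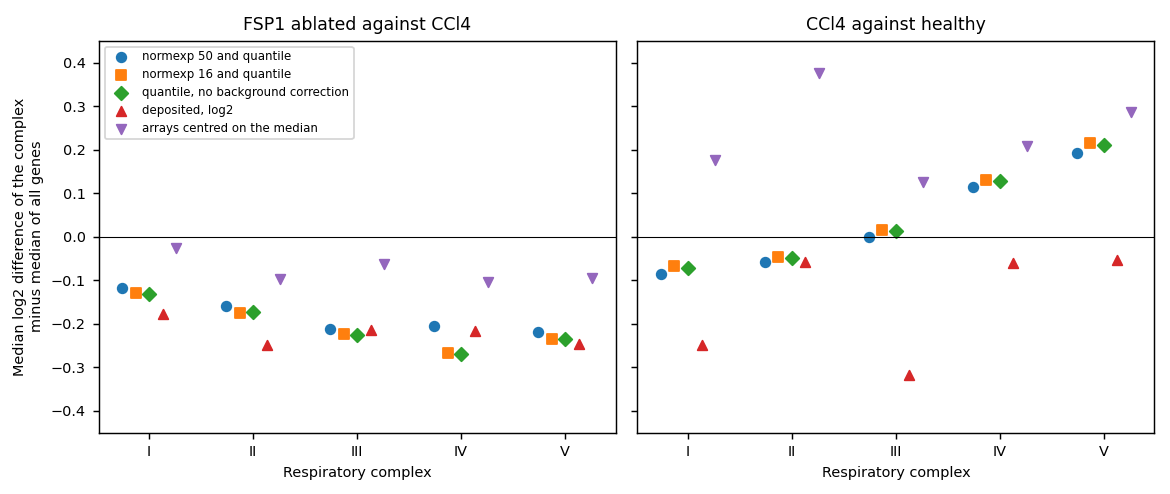
Median log2 difference of each complex minus the median of all genes, under 5 ways of scaling the arrays. In FSP1 ablated against CCl4 all medians lie below 0 under each scaling, between -0.03 and -0.27; in CCl4 against healthy, complexes I to V change sides with the scaling.

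In complex I, Ndufb7, a subunit of the membrane arm, fell by 0.69 (SE 0.13, adjusted p = 0.000844). Its levels were 8.21 (lowest), 8.68 (median) and 8.80 (highest) on CCl4 arrays, against 8.93, 9.36, 9.45 and 9.42 on healthy arrays, with no overlap. Ndufb11 fell by 0.63 (SE 0.11, adjusted p = 0.000336), and its CCl4 range of 6.34 to 6.80 lay below the healthy values of 6.98, 7.07, 7.27 and 7.53. Ndufb2 fell by 0.89 (SE 0.20, adjusted p = 0.00273), and its highest CCl4 array (8.80) passed the lowest healthy array (8.76). Ndufs7, an iron-sulfur core subunit, fell by 0.37 (SE 0.09, adjusted p = 0.00667). Ndufb4, Ndufa13 and Ndufa6, all accessory subunits, fell by 0.54, 0.28 and 0.21. In 10 fits that each left out an array of these groups, the call held 9 times for Ndufb4 and 3 times each for Ndufa13 and Ndufa6. No other complex I member passed.

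Among the genes that rose, Uqcrh of complex III read 13.24 (lowest), 13.45 (median) and 13.65 (highest) on CCl4 arrays, against 13.07, 12.94, 12.92 and 12.93 on healthy arrays. The groups did not overlap, and it rose by 0.48 (SE 0.08, adjusted p = 0.000292). Cox7a1 rose by 0.89 (SE 0.17, adjusted p = 0.00113), against healthy levels of 7.33, 7.18, 7.11 and 6.93, which all lay below the CCl4 arrays. Cox7a2, the general form of the same subunit VIIa, rose by 0.41 (SE 0.13, adjusted p = 0.0251). Cox6b2 was at least 1.39-fold higher (adjusted p = 0.00217), since its probe was above background on 6 of 6 CCl4 arrays and on 0 of 4 healthy arrays. In complex V, Atp5mpl rose by 0.60 (SE 0.11, adjusted p = 0.000933), Atp5b by 0.27 (SE 0.08), Atp5g3 by 0.25 (SE 0.07) and Atp5j, the coupling factor 6, by 0.49 (SE 0.13, adjusted p = 0.00733). A second Atp5j probe gave -0.20 (adjusted p = 0.27), so the probes disagree.

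The 4 healthy arrays and CCl4 arrays 5 and 6 had the Y-linked signal, and the other 4 CCl4 arrays did not. With that signal as a block, 12 members were called, 9 higher and 3 lower, beside 19.7% of all genes, and of the 7 falls those of Ndufb11 (-0.75) and Ndufb7 (-0.49) passed. Cox7a1 (1.05), Atp5mpl (0.78), Uqcrh (0.43) and Cox6b2 (0.48) passed as well, and Ndufa1, the X-linked small subunit of complex I, was called higher (0.59). Against CCl4 arrays 1 to 3 alone the healthy comparison gave 27 calls, 14 higher and 13 lower, beside 36.3% of all genes. Without healthy array 1 it gave 23.

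Cell markers were also counted between CCl4 and healthy liver, where 34.6% of all genes were called. Of 12 hepatocyte markers 4 fell and 0 rose (33.3%), near that share. Of 9 fibroblast and stellate cell markers 7 rose. Of 11 macrophage and monocyte markers 7 were measured and 5 rose, with sums of 60.9 to 64.7 on CCl4 arrays and 52.1 to 57.0 on healthy arrays. Of 6 neutrophil markers 5 were measured and 2 rose (40%, near the share of all genes), with sums of 35.4 to 39.8 on CCl4 arrays and 32.4 to 35.3 on healthy arrays. Of the 2 measured red cell genes 1 fell, and their median difference was -1.71. The part of these cells in the members' values was not tested.

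Both CCl4 against healthy and FSP1 ablated against CCl4 use the CCl4 arrays, so their values are given side by side. Cox7a1, Cox6b2, Uqcrh, Atp5b, Atp5g3 and Atp5mpl rose in CCl4 liver and fell after FSP1 ablation, and Ndufb11 did the reverse. Set directly against healthy liver, FSP1 ablated liver differed by -0.27 in Cox7a1 (adjusted p = 0.346), 0.23 in Uqcrh (adjusted p = 0.0763), -0.18 in Atp5g3 (adjusted p = 0.12), 0.13 in Atp5mpl (adjusted p = 0.507) and -0.12 in Ndufb11 (adjusted p = 0.512). None of these passed on the quantile-normalized scale, and these values changed with the scaling. On the deposited scale they were 0.92 in Cox7a1, 1.197 in Uqcrh, 0.69 in Atp5g3, 1.07 in Atp5mpl and 1.22 in Ndufb11, and all 5 passed. With centred arrays Uqcrh (1.02), Atp5g3 (0.52), Atp5mpl (0.89) and Ndufb11 (0.51) passed and Cox7a1 (0.32, adjusted p = 0.153) did not. In this comparison 64 members were called on the deposited scale, beside 73% of all genes, and 49 with centred arrays, beside 54.1%.

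FSP1 ablated liver against healthy liver gave 1 rise and 15 falls, beside 18.2% of all genes called (9.16% higher and 9.08% lower). The falls were 9 in complex I, 2 in complex III, 2 in complex IV and 2 in complex V, and 18 members did not overlap, beside 20.6% of all genes. Ndufb2 fell by 0.93 (SE 0.22, adjusted p = 0.00894), Ndufb10 by 0.61 (SE 0.14, adjusted p = 0.00987) and Ndufab1 by 0.41 (SE 0.09, adjusted p = 0.00806). In complex III, Uqcrc1, a core protein, fell by 0.59 and Cyc1, which holds the heme of cytochrome c1, by 0.35. In complex V, Atp5o, which joins the stalk to the catalytic head, read 7.34, 7.54, 7.49 and 7.33 on FSP1 ablated arrays, against 7.39, 8.86, 9.23 and 9.45 on healthy arrays. It fell by 1.31 (SE 0.33, adjusted p = 0.0148), and healthy array 1 lay within the FSP1 ablated range. Atp5e fell by 0.95 (SE 0.28, adjusted p = 0.0267). On the deposited scale 14 of the 15 falls turned to above 0, as did 12 of 15 with centred arrays, while 15 and 11 of them stayed below the median of all genes. All FSP1 ablated arrays had high Xist and all healthy arrays the Y-linked signal. With that signal as a block, which then rests on the CCl4 arrays, 1 member was called, Ndufa1 (0.76, adjusted p = 0.0483), beside 1.66% of all genes.

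aSMA ablated liver against healthy liver gave 2 rises and 7 falls, beside 23% of all genes called (11.3% higher and 11.7% lower). The 7 falls were all in complex I: Ndufb2 (-0.78), Ndufb11 (-0.73, SE 0.12, adjusted p = 0.000898), Ndufb7 (-0.69), Ndufb10 (-0.58), Ndufa6 (-0.40), Ndufs7 (-0.35) and Ndufab1 (-0.30). Cox7a1 rose by 0.85 (SE 0.20, adjusted p = 0.00788) and Atp5mpl by 0.59 (SE 0.13, adjusted p = 0.00528). As with CCl4, the 7 falls turned to above 0 on the deposited scale, and 6 of 7 did with centred arrays. Ndufb2, Ndufb7 and Ndufs7 fell in all 3 comparisons with healthy liver, which share the healthy arrays. The groups did not overlap for 24 members, beside 33.7% of all genes. All aSMA ablated arrays had high Xist and all healthy arrays the Y-linked signal. With that signal as a block, which then rests on the CCl4 arrays, 8 members were called, beside 10.8% of all genes. Of these, 6 were higher and 2 lower, and none of the 9 calls named here changed sign. Of the 9 named here Atp5mpl (0.87), Cox7a1 (1.08) and Ndufb11 (-0.90) passed, and the other 6 did not.

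Several complex IV genes are isoforms known from other tissues. Cox6a2, the heart and muscle form of subunit VIa, read 8.36, 9.0, 5.73 and 7.25 on FSP1 ablated arrays, against 5.82 (lowest), 6.03 (median) and 6.39 (highest) on CCl4 arrays. FSP1 ablated arrays 1, 2 and 4 lay above every other array of the series, and array 3 lay at background. The difference was 1.55 (SE 0.42, adjusted p = 0.0228), with an adjusted p of 0.0812 without FSP1 ablated array 1 and 0.0835 without array 2. Against healthy liver, where 0 of 4 arrays were above background, Cox6a2 was at least 3.26-fold higher (adjusted p = 0.012). The muscle genes Ckm, Acta1 and Myh4 were above background on 0 of 17 arrays, Tnnt3 on 3 and Mb, the myoglobin gene, on 14. In FSP1 ablated against CCl4 liver Mb differed by -0.02 (adjusted p = 0.9) and Tnnt3 by -0.06 (adjusted p = 0.588). Cox6a1, the general form, averaged 12.90 ± 0.06 on FSP1 ablated arrays and 13.09 ± 0.36 on CCl4 arrays.

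Cox8b, the form of subunit VIII known from heart, muscle and brown fat, read 9.01, 5.98 and 5.77 on aSMA ablated arrays, against 5.69 (lowest), 5.78 (median) and 5.86 (highest) on CCl4 arrays. Its high value came from aSMA ablated array 1 alone, and the difference of 1.14 (SE 0.49) did not pass (adjusted p = 0.401). On that array Ucp1 and Cidea, known from brown fat, read 7.15 and 7.39, while their other aSMA ablated arrays lay at 5.68 to 5.71 and 6.12 to 6.14. Of the list of 7 muscle and brown fat markers 3 were measured, Cidea, Mb and Tnnt3, and their log2 values summed to 17.3 to 17.7 on FSP1 ablated arrays, 17.6 to 19.2 on aSMA ablated arrays, 17.5 to 17.9 on CCl4 arrays and 17.5 to 18.4 on healthy arrays. Their part in the Cox8b value was not tested. Healthy array 2 had the next highest Cox8b, at 6.86. Cox4i2, known as the lung form of subunit IV, was above background on 3 arrays and passed in no comparison, nor did Cox4i1.

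**Figure D5:**
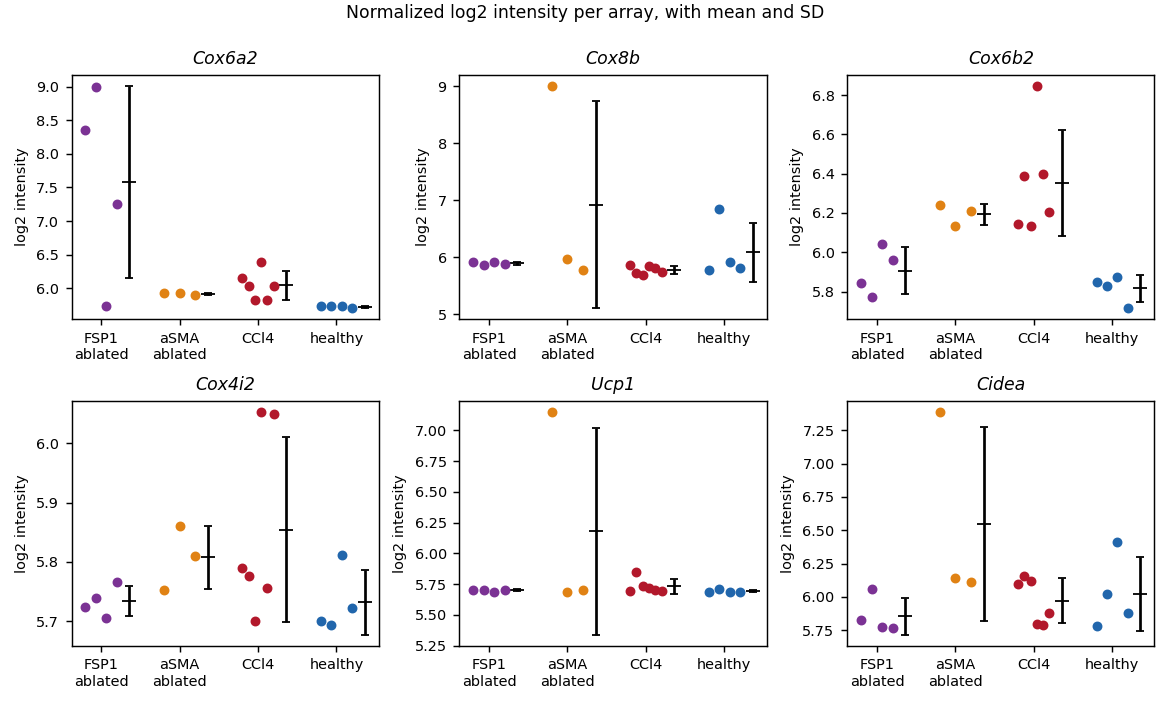
Normalized log2 intensity of 4 complex IV isoform genes and of the brown fat genes Ucp1 and Cidea on each array, with group mean and SD at the right of the points. Cox6a2 is high on 3 of 4 FSP1 ablated arrays, and aSMA ablated array 1 is the highest of all arrays for Cox8b, Ucp1 and Cidea.

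No complex II gene passed in any comparison on its brightest probe. Sdha, which the rule also names, had no probe under its symbol and was not measured. Sdhb, the iron-sulfur subunit, read 10.47, 10.38, 11.13 and 10.35 on FSP1 ablated arrays, 11.08, 11.14 and 10.97 on aSMA ablated arrays, 10.50 (lowest), 10.53 (median) and 11.25 (highest) on CCl4 arrays and 10.94, 11.05, 10.94 and 11.05 on healthy arrays. CCl4 arrays 1 to 4 lay at 10.50 to 10.56 and arrays 5 and 6 at 11.25 and 11.05, so the CCl4 arrays with the Y-linked signal were the higher ones. The dimmest Sdhb probe fell by 0.29 (adjusted p = 0.00682 in limma) in CCl4 against healthy liver in the fit of every probe on its own, beside -0.26 for the brightest. In FSP1 ablated against healthy liver the dimmest probe fell by 0.28 (adjusted p = 0.026 in limma), beside -0.41 for the brightest, which did not pass. Sdhc, a membrane anchor, stayed between 11.58 and 12.10 on all arrays.

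Genes with more than 1 probe did not always give the same value. Of 4 Ndufs4 probes, the brightest differed by 0.15 between CCl4 and healthy liver and did not pass, while the next dimmer ones rose by 0.37 and 0.30. The brightest Ndufa5 and Ndufc1 probes did not pass in FSP1 ablated against CCl4 liver, at -0.09 and -0.31, and their dimmer probes fell by 0.40 and 0.40. Ndufv3 fell on its brightest probe in that comparison, and its dimmest probe differed by 0.05.

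Other mitochondrial genes were counted from lists that were set up together with the members. Their counts stand beside 34.6% of all genes called in CCl4 against healthy liver and 13.2% in FSP1 ablated against CCl4 liver. Of 10 measured complex I assembly factors, 2 rose and 5 fell in CCl4 against healthy liver, among them Timmdc1 (-1.08) and Ecsit (-0.83), and 1 rose and 1 fell in FSP1 ablated against CCl4 liver (70% and 20% of the list). Ndufaf5, an assembly factor, rose by 0.47 in CCl4 liver and fell by 0.78 after FSP1 ablation. Of 27 assembly factors of the other complexes, 1 rose and 8 fell in CCl4 liver, among them Surf1 (-1.02), needed to build complex IV, and 1 rose and 3 fell after FSP1 ablation. Of 9 carriers and electron entry proteins, 1 rose in CCl4 liver and 3 fell after FSP1 ablation. The gene named in both counts is Atpif1, whose protein inhibits the hydrolysis of ATP by complex V: it rose by 1.07 (SE 0.14, adjusted p = 4.06e-05) in CCl4 liver and fell by 1.03 (SE 0.14, adjusted p = 0.000157) after FSP1 ablation.

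Of 15 genes of the TCA cycle and pyruvate dehydrogenase, which supply NADH, 2 fell in CCl4 against healthy liver, Idh3a (-0.66) and Dlat (-0.42). After FSP1 ablation Pdhb (1.42) and Pdha1 (0.49) rose and Dlst (-0.49) fell. Of 8 genes of coenzyme Q synthesis 2 fell in CCl4 liver and 1 after FSP1 ablation. Of 24 import proteins and porins 4 rose and 5 fell in CCl4 liver, and 2 rose and 2 fell after FSP1 ablation (37.5% and 16.7% of the list), with Tomm6 at 0.67 and -0.77 and Timm17b at -0.54 and 0.46. Of 13 regulators of mitochondrial biogenesis 1 rose (Tfam, 0.30) and 3 fell in CCl4 liver, and Tfb2m rose by 0.74 after FSP1 ablation. In aSMA ablated against CCl4 liver no gene of these lists passed. The list medians in FSP1 ablated against CCl4 liver were -0.05 for complex I assembly factors, 0.02 for the other assembly factors, -0.25 for carriers, -0.10 for coenzyme Q synthesis, 0.05 for the TCA cycle, 0.02 for import and 0.19 for regulators, beside -0.18 for the respiratory chain genes and 0.01 over all genes.

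The genes outside the set whose levels followed the mean of the 78 members most closely over 17 arrays were Mipep (Pearson r 0.92, Spearman rho 0.90), Cmc2 (0.91 and 0.87), Cpped1 (0.90 and 0.87), Pmpcb (0.90 and 0.85) and Vamp5 (0.89 and 0.88). These arrays share groups and normalization, so the values are a description.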

How the data were processed

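Mouse liver RNA was hybridised to Illumina bead arrays, 17 in all. The deposited values are linear probe intensities that, per the submitters' processing notes, the authors obtained from GenomeStudio. Its version, background step and normalization are unstated there. A deposited table of 34 columns that match no label was not used.

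Intensities were background-corrected with limma's normexp (limma 3.58.1, R 4.3.3, offset 50), quantile normalized and put on the log2 scale. The background of an array was the mode of its values up to the 80th percentile. That setting was taken, after the data were seen, from 11 tried, as the closest to an earlier processing of these data. With the 75th percentile the same members were called. Probes above the 95th percentile of background on at least 3 arrays were kept, 17144 of 25697, with the brightest probe per gene. Of all probes, the platform annotation gives 23978 a single gene symbol and 1719 none. This left 12666 genes, of which 1044 have no symbol. A limma model by group (lmFit, eBayes) was fitted to all 17 arrays, with Benjamini-Hochberg adjustment over all 12666 genes in each of 6 comparisons. A gene not above background on any array of a group has a fold given as a bound, from the higher of the probe's value and the lowest signal above background. All 81 members matched RefSeq by gene ID with the same symbol.

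Values are given in full for up to 3 members with the smallest p per complex, direction and comparison, for the extremes, for complex II and for tissue isoforms, and for up to 4 genes of each other list. Genes with a changed second probe were named after their values were seen. The members and lists were chosen with earlier results of these data known. Alternatives changed the scaling, offset, filter, probe choice, blocks and arrays used, and the script was tested on simulated data.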

Additional observations from a re-analysis of the deposited data

Results flagged for a closer look

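Among 39 members in the 3 groups of 4 or more arrays, 14 of 117 sets of values had 1 array apart from the others by Dixon's criterion, which chance meets in about 1 of 20 sets. The members examined were those called in any comparison and 9 added by hand, and the aSMA ablated arrays are too few for the criterion. On FSP1 ablated arrays, Ndufa10 was high on array 3 (12.25, next 11.90), Sdhb was high on array 3 (11.13, next 10.47) and Ndufa6 was low on array 4 (12.45, next 12.74). On CCl4 arrays, Cox6b2 (6.85, next 6.40) and Cox8a (13.53, next 13.27) were high on array 4. Uqcrq was high on array 5 (5.96, next 5.80), and Atp5k (6.15, next 5.80) and Ndufs7 (12.08, next 11.77) on array 6. On healthy arrays, array 1 was low for Ndufb7 (8.93, next 9.36) and Ndufa13 (13.29, next 13.58) and high for Uqcrh (13.07, next 12.94). Cox8b was high on array 2 (6.86, next 5.92), and array 4 was low for Atp5mpl (12.53, next 12.94) and Cox6a2 (5.70, next 5.73), the last at background.

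The effects of FSP1 and aSMA ablation, both taken against CCl4 liver, differed in 3 members by the limma test of the difference. The CCl4 arrays cancel in this difference, so it repeats the FSP1 ablated against aSMA ablated comparison above and is no second test. The FSP1 effect minus the aSMA effect was -1.12 for Cox7a1, -0.37 for Atp5g3 and 0.61 for Ndufb11, whose second probe gave 0.07.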

How the results depend on the processing

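The calls against healthy liver changed with the scaling, and so did those of FSP1 ablated against CCl4. The members called on the deposited scale and with centred arrays numbered 4 and 7 in FSP1 ablated against CCl4 (14 as reported), 68 and 57 in CCl4 against healthy (15), 64 and 49 in FSP1 ablated against healthy (16) and 69 and 61 in aSMA ablated against healthy (9). On the deposited scale, these differences turned to above 0 in CCl4 against healthy: Ndufa13 0.48, Ndufa6 0.60, Ndufb11 0.42, Ndufb2 0.26, Ndufb4 0.67, Ndufb7 0.49, Ndufs7 0.52. In FSP1 ablated against healthy they were Atp5e 0.14, Cox6b1 0.47, Cox8a 0.63, Cyc1 0.65, Ndufa10 0.48, Ndufab1 0.72, Ndufb10 0.49, Ndufb2 0.19, Ndufb3 0.57, Ndufb7 0.62, Ndufs7 0.63, Ndufs8 0.63, Ndufv3 0.47, Uqcrc1 0.34. In aSMA ablated against healthy they were Ndufa6 0.54, Ndufab1 0.98, Ndufb10 0.56, Ndufb11 0.19, Ndufb2 0.42, Ndufb7 0.52, Ndufs7 0.67. With each array centred on its median, these differences turned to above 0 in FSP1 ablated against CCl4: Atp5b 0.025. In CCl4 against healthy they were Ndufa13 0.28, Ndufa6 0.39, Ndufb11 0.017, Ndufb2 0.030, Ndufb4 0.27, Ndufb7 0.23, Ndufs7 0.31. In FSP1 ablated against healthy they were Cox6b1 0.29, Cox8a 0.45, Cyc1 0.46, Ndufa10 0.31, Ndufab1 0.16, Ndufb10 0.29, Ndufb3 0.38, Ndufb7 0.36, Ndufs7 0.44, Ndufs8 0.44, Ndufv3 0.29, Uqcrc1 0.16. In aSMA ablated against healthy they were Ndufa6 0.35, Ndufab1 0.36, Ndufb10 0.34, Ndufb2 0.18, Ndufb7 0.27, Ndufs7 0.47. With the Y-linked signal as a block 8 members were called in FSP1 ablated against CCl4, beside 12% of all genes. In FSP1 against aSMA ablated 7 were called (3 as reported), beside 6.94%, and in FSP1 ablated against healthy 1, beside 1.66%. With CCl4 arrays 1 to 3 alone 27 were called in CCl4 against healthy, beside 36.3%. In aSMA ablated against CCl4 the count was then 6 (0 as reported), beside 9.73%. With the replicate number as a block 4 members were called in FSP1 ablated against CCl4, beside 9.82% of all genes. The labels do not say whether the numbers pair the arrays. Over 21 pairs of arrays with the same number the correlation of deviations ran from -0.30 to 0.38, and 6 exceeded 0.1. With so few arrays per group these values cannot decide it. The cause of these changes was not tested.

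Leaving out 1 array at a time gave 4 to 16 calls in FSP1 ablated against CCl4, 0 to 0 in aSMA ablated against CCl4, 1 to 9 in FSP1 against aSMA ablated, 10 to 23 in CCl4 against healthy, 5 to 24 in FSP1 ablated against healthy and 5 to 13 in aSMA ablated against healthy. In FSP1 ablated against healthy the count was 9, 5 and 7 without healthy array 2, 3 and 4, and 8 and 7 without FSP1 ablated array 1 and 2. In aSMA ablated against healthy it was 5 without aSMA ablated array 2. Where 2 arrays of a group remained, the spread came from all groups. The counts with an array left out, here and above, are not set beside the share of all genes. They therefore do not tell whether the members moved more than other genes. Of 502 single calls over these fits 366 held and 136 did not pass, and none changed sign. Of 57 single calls, 57 held with the background mode from the 75th percentile, 56 with the 99th percentile as filter, 54 with every probe, 50 with no filter, 42 with an offset of 16, 42 without background correction, 41 with only the groups compared, 41 with the replicate block and 22 with the Y-linked block. Fewest held under the other scalings. On the deposited scale 17 of the 57 held, 28 changed sign and 12 kept their sign but did not pass. With centred arrays 19 held, 26 changed sign and 12 kept their sign but did not pass. The 75th percentile was added after the data were seen. Signal near background limits Cox6b2, Cox6a2, Cox8b and Cox4i2.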
